A study of Mus musculus with 23 samples.

Results

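A set of 10 genes that mark inflammatory cancer-associated fibroblasts (CAFs) was followed across the mouse tumor models, namely Il6, Il11, Lif, Il33, Cxcl12, Has1, Has2, Clec3b, Dpt and Ly6c1. They were chosen by name, and each was read from the RefSeq transcript with the largest mean in its table, which gave 10 of the 24940 gene symbols in both the tumor and the CAF data (for Il6, Il11 and Ly6c1 the transcript differs between the tables). Poly(A) RNA had been sequenced from fragments of 15 whole tumors (3 per model) and from 8 libraries of sorted CAFs, 2 for every model but B16. Tumors grew under the skin of 1 or both flanks of adult female C57BL/6 mice given 500000 cells of 1 line, namely B16-F10 melanoma (called B16), EO771.LMB breast carcinoma (EO771), LL/2 lung carcinoma (LL2), the colon carcinoma MC38 or the pancreatic ductal carcinoma Pan02, and no group received a drug or carried an engineered allele. The CAFs were live cells of the CD45- fraction sorted for FAP, a surface protease of activated fibroblasts, so their definition rests on that 1 protein, and the 2 libraries of a model came from separate sorts. B16 CAFs and CT26 samples were not analysed here. No label ties a library to a single mouse, so p-values measure the spread between libraries.

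Inflammatory CAFs are fibroblasts that secrete cytokines and chemokines rather than contractile proteins. IL-6, IL-11 and LIF signal through the shared receptor chain gp130 and STAT3, and IL-1 and NF-kB are known inducers of their genes in fibroblasts. IL-33 is a nuclear alarmin read by the receptor ST2, CXCL12 attracts cells that carry CXCR4, the hyaluronan synthases make a large matrix sugar, and Clec3b, Dpt and Ly6c1 mark quiescent or adventitial fibroblasts. In the mm10 build, Il6 lies at chr5:30013114-30019975, Il11 at chr7:4772378-4778141, Lif at chr11:4257568-4272514, Il33 at chr19:29925113-29960717 and Cxcl12 at chr6:117168535-117175069. Has1 lies at chr17:17843326-17855188, Has2 at chr15:56665627-56694546, Clec3b at chr9:123150946-123157432, Dpt at chr1:164796663-164824273 and Ly6c1 at chr15:75045015-75048837, and reads were counted over the exons of each.

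The sum of counts per tumor ranged from 10035173 to 21946486, and the reads recovered from the CAF values from 9267770 to 22842000. The 9 fibroblast markers, among them Col1a1, Dcn and Pdgfra, had a summed level of 79.2 to 320 RPKM in B16 tumors, 709 to 1537 in EO771, 627 to 2690 in MC38, 1172 to 2665 in LL2 and 7727 to 8493 in Pan02. In CAFs the same sum was 8980 and 9733 RPKM in EO771, 8254 and 7011 in LL2, 6551 and 1530 in MC38 and 3880 and 2386 in Pan02. Col1a1, Col1a2 and Col3a1 made up most of the CAF sums, at 3773, 2474 and 2827 RPKM in EO771 library 1. Single markers did not all follow the sums. Dcn was 354 and 540 RPKM in Pan02 CAFs against 275 and 307 in EO771 CAFs. Pdgfra was 103 to 188 CPM in LL2 tumors and 93.2 to 147 in Pan02 tumors. The 8 leukocyte markers summed to at most 82.0 RPKM in any CAF library and to at least 210 RPKM in every tumor, and Ptprc, which encodes CD45, was at most 0.947 RPKM in CAFs. Epithelial markers were at high levels in some CAF libraries, since the 6 of them summed to 882 and 1171 RPKM in Pan02, 494 and 501 in EO771 and 203 and 211 in LL2, against 4.35 and 2.10 in MC38. Krt8 made up nearly all of that sum in EO771 CAFs, at 492 and 495 RPKM. What part these cells or transcripts had in the results was not tested. In bulk RNA, fewer cells of a type and less RNA per cell cannot be told apart.

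In whole tumors, most of the genes were low in B16 and EO771 and high in LL2 and Pan02, while Lif was high and Il11 intermediate in EO771. All 10 passed the edgeR quasi-likelihood test for any difference between the 5 models (adjusted p under 0.05), as did 91.1% of the 15722 genes tested. Against the mean of the other 4 models, and at a log2 fold change of at least 1 besides, 9 of 10 were lower in B16, where 19.6% of all genes were, and 0 were higher, where 13.1% were. In EO771, 6 were lower and 1 higher, beside 13.7% and 9.71% of all genes. In LL2, 6 were higher and 0 lower, beside 8.51% and 8.29%. In MC38, 1 was higher and 0 lower, beside 11.2% and 8.24%. In Pan02, 8 were higher and 0 lower, beside 18.8% and 7.93%. Over the 10 genes, the median log2 fold change was 2.5 in Pan02 and 1.42 in LL2, 0.84 in MC38, and -2.82 and -2.02 in B16 and EO771, while the median over all genes tested lay between -0.04 and 0.05. These contrasts share their tumors. Without LL2 tumor 2 the count of genes higher in LL2 was 2, and without EO771 tumor 1 or 2 the count lower in EO771 was 2 or 3.

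**Figure D1:**
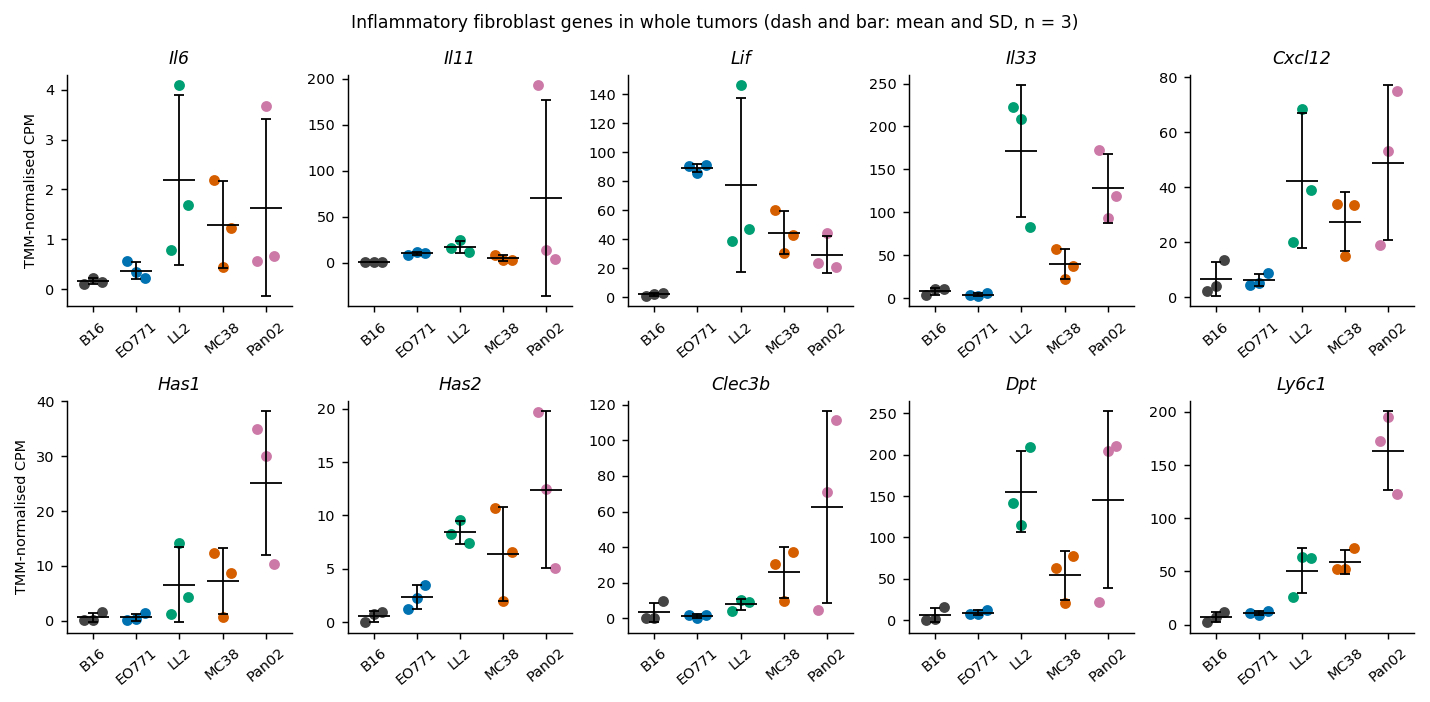
TMM-normalised CPM (y axis, library-scaled counts) of each gene in the 3 tumors of each model (x axis); points are tumors, the dash is the mean and the bar the SD. B16 tumors lie near the bottom of every panel and EO771 tumors of all but those of Il11 and Lif, and Il11 in Pan02 rests on 1 tumor at 193 CPM.

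The sorted CAFs gave another order of the models, with EO771 at the top for 5 of the 10 genes, LL2 for 3 and Pan02 for 2. Of the 10 genes, 7 passed the limma test on log2(RPKM + 1) for any difference between the 4 models (adjusted p under 0.05), as did 80.4% of the 13598 genes tested. Those that did not were Lif (adjusted p = 0.0623), Dpt (0.0982) and Ly6c1 (0.273). Against the mean of the other 3 models, 3 genes were higher in EO771 CAFs and 0 lower, beside 8.05% and 7.06% of all genes. In LL2 CAFs 0 were higher and 0 lower, beside 3.89% and 5.13%. In MC38 CAFs 0 were higher and 3 lower, beside 10.9% and 9.87%, and in Pan02 CAFs 1 was higher and 2 lower, beside 9.73% and 8.41%. The median log2 difference of the 10 genes was 0.79 in EO771 and 0.20 in LL2 but -0.77 in MC38 and -0.50 in Pan02, while that over all genes tested lay between -0.03 and 0.00029. Several of these calls rested on single libraries. The log2 difference of Il6 in EO771 went from 1.63 to 1.08 without EO771 library 2, and that of Il11 in Pan02 from 1.49 to 0.89 without Pan02 library 3.

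The 2 libraries of MC38 CAFs, numbered 5 and 6 in the deposited table, stood apart from each other. All 10 genes were higher in library 5, by 1.04 to 5.41 times with a median of 2.78, and so were all 9 fibroblast markers, with a median of 2.94. Pan02 library 3 exceeded library 4 in all 10 genes as well, with a median of 2.02, but in 6 of the 9 fibroblast markers. All 10 log2 differences of MC38 CAFs were below 0, yet without library 6 those of Cxcl12, Clec3b, Dpt and Ly6c1 were 0.75, 0.64, 0.30 and 0.02. Library 6 of MC38 and library 4 of Pan02 were also left out together, an alternative chosen after the values were seen. The MC38 log2 differences of Cxcl12, Clec3b, Dpt and Ly6c1 were then 0.59, 0.48, 0.11 and -0.14. The spread in that fit came from the close EO771 and LL2 pairs alone.

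**Figure D2:**
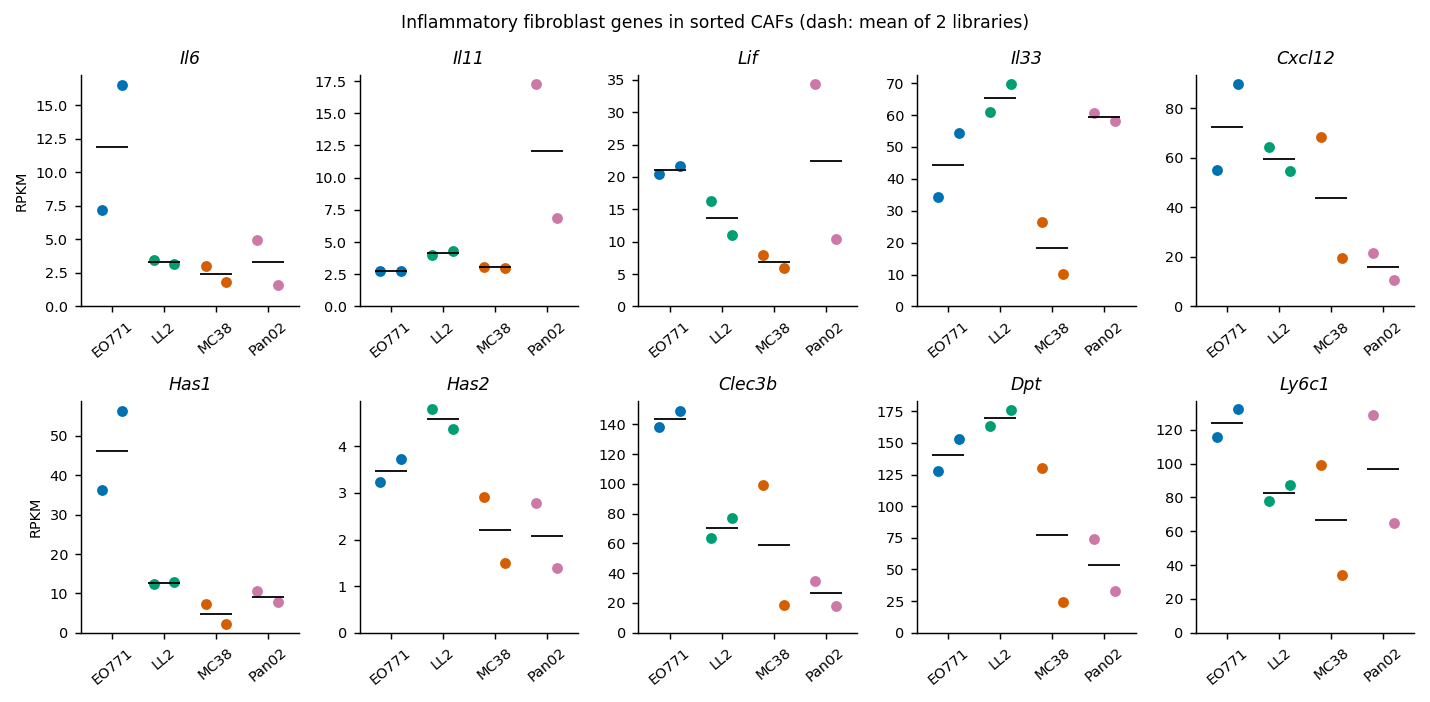
RPKM (y axis, reads scaled for transcript length and depth) of each gene in the 2 CAF libraries of each model (x axis); points are libraries and the dash their mean. EO771 libraries are the highest for Il6, Has1 and Clec3b, and the 2 MC38 libraries lie far apart for Clec3b, Cxcl12 and Dpt.

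Il6, which encodes the founding cytokine of the gp130 family, was scarce in whole tumors. It reached 0.781, 4.09 and 1.69 CPM in the 3 LL2 tumors, 0.562, 3.68 and 0.660 in Pan02, 2.19, 0.447 and 1.23 in MC38, 0.556, 0.340 and 0.218 in EO771, and 0.0982, 0.218 and 0.150 in B16. The B16 values stood for 1, 3.5 and 3 reads, at or near the 3 counts below which a count is not told from 0. LL2, Pan02, MC38 and EO771 overlapped as neighbours in the order, and the highest B16 and lowest EO771 tumors met at 0.218 CPM. The log2 fold change was 1.82 ± 0.57 (SE) in LL2 (adjusted p = 0.0198) and -2.73 ± 0.86 in B16 (adjusted p = 0.0134), but the LL2 value was 1.0 without LL2 tumor 2 (adjusted p = 0.28) and that of B16 no longer passed without its tumor 3 (adjusted p = 0.057). In CAFs, Il6 was 7.18 and 16.5 RPKM in EO771, 3.43 and 3.17 in LL2, 4.97 and 1.61 in Pan02 and 3.02 and 1.85 in MC38. EO771 CAFs lay above all other libraries, with a log2 difference of 1.63 ± 0.37 (adjusted p = 0.0089), which was 1.08 without EO771 library 2 (adjusted p = 0.10). EO771 was next to last in the order of tumor models and first in that of CAFs.

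Il11, whose cytokine drives matrix production in fibroblasts, followed neither Il6 nor Lif. In Pan02 tumors it was 193, 14.0 and 3.78 CPM, so that tumor 1 lay far above the other 2. LL2 tumors held 15.7, 24.2 and 11.2 CPM, EO771 tumors 8.53, 11.4 and 10.5, MC38 tumors 8.81, 2.90 and 3.05, and B16 tumors 0.344, 0.466 and 0.649. Only B16 lay apart from its neighbour in the order. Pan02 had a log2 fold change of 3.92 ± 0.66 (adjusted p = 0.000179), but 0.90 without tumor 1 (adjusted p = 0.094), and in B16 it was -4.86 ± 1.18 (adjusted p = 0.00269). Pan02 CAFs were again the highest, at 17.3 and 6.90 RPKM, against 4 and 4.33 in LL2, 3.09 and 2.96 in MC38 and 2.74 and 2.76 in EO771. Neighbouring models did not overlap in CAFs, and the log2 difference of Pan02 was 1.49 ± 0.28 (adjusted p = 0.00328), or 0.89 without library 3.

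Lif, which encodes leukemia inhibitory factor, was the 1 member higher in EO771 tumors. It was 90.5, 85.7 and 90.8 CPM there (89.0 ± 2.84, SD, n = 3), 38.6, 146 and 47.2 in LL2, 60.0, 30.5 and 42.6 in MC38, 23.5, 44.0 and 20.5 in Pan02, and 0.786, 2.18 and 2.52 in B16. EO771, MC38 and Pan02 tumors overlapped LL2 or each other as neighbours, while B16 lay below all. Its log2 fold change was 2.08 ± 0.33 in EO771 (adjusted p = 0.000142), 1.83 ± 0.33 in LL2 (adjusted p = 0.000634, or 0.98 without LL2 tumor 2) and -4.81 ± 0.54 in B16 (adjusted p = 3.96e-06). In CAFs, Lif was 34.4 and 10.4 RPKM in Pan02, 20.4 and 21.7 in EO771, 16.3 and 11.1 in LL2 and 7.93 and 5.91 in MC38, which were the lowest. The log2 difference of MC38 was -1.24 ± 0.38 (adjusted p = 0.0245), with adjusted p = 0.11 without MC38 library 6 (-1.06), 0.06 without LL2 library 7, and a log2 difference of -0.97 without Pan02 library 3. Per transcript length, Lif in EO771 was alike in scale in tumors (21.4 to 22.6 RPKM) and CAFs, whereas Il6 was 0.192 to 0.487 RPKM in EO771 tumors.

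The promoters of the 3 gp130 cytokines and of Dpt are shown because they hold 7 of the 9 matches found to 4 short motifs in the promoters of the set. The motifs were GGANTTTCC (a kappa B form, in 1.25% of 32851 RefSeq promoters), TTCNNNGAA (a STAT form, 8.3%), TGANTCA (an AP-1 form, 7.81%) and TTNNGCAA (a C/EBP form, 10.8%), searched on both strands from 250 bases before to 50 after each start. Of the 10 genes, 8 matched a RefSeq promoter in the GRCm38.p6 table; Has2 and Clec3b did not. The 250 bases before the start are printed on the strand of the gene, with matches in capitals, for Il6 (chr5:30012864-30013113, plus strand), Il11 (chr7:4778142-4778391, minus strand), Lif (chr11:4257318-4257567, plus strand) and Dpt (chr1:164796413-164796662, plus strand).
Il6 promoter: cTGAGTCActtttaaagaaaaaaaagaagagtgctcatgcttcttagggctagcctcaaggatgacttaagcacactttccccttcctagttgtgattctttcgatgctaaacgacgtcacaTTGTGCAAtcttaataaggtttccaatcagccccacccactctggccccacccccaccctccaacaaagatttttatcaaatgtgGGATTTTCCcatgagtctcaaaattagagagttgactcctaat
Il11 promoter: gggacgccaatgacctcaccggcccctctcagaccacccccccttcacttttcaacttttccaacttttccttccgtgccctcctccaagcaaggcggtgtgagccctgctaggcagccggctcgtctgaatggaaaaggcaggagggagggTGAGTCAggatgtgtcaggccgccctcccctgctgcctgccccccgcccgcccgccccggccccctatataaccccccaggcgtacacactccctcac
Lif promoter: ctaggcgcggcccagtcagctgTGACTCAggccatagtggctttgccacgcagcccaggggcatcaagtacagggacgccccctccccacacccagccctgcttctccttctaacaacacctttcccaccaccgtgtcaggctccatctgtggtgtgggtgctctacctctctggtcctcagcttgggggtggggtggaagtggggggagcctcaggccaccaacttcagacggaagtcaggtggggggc
Dpt promoter: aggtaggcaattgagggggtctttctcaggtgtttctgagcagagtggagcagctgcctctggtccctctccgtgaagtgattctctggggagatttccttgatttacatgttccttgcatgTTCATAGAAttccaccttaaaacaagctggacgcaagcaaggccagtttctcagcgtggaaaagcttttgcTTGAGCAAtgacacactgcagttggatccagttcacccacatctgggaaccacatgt
In the Il6 promoter the capitals mark TGAGTCA (AP-1 form), TTGTGCAA (C/EBP form) and GGATTTTCC (kappa B form), the 1 kappa B match in the set. Il11 and Lif each hold 1 AP-1 form, TGAGTCA and TGACTCA. Dpt holds TTCATAGAA, the 1 STAT match in the set, and a C/EBP form. Further C/EBP forms lay at the start of Has1 and in an alternative promoter of Il33. A match is a run of letters and not a shown binding site.

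Receptors of the gp130 family did not follow the cytokines in a single direction. Il6ra, the IL-6 receptor chain, was lowest in B16 tumors (log2 -3.07, adjusted p = 6.2e-08) and higher in EO771 and LL2 (1.08 in each). Il6st, which encodes gp130, was higher in Pan02 tumors (1.15) and did not pass the test among CAFs (adjusted p = 0.12). Il11ra1 was higher in Pan02 tumors (1.72) but lower in Pan02 CAFs (log2 difference -1.67, adjusted p = 0.020), where Il11 itself was highest. Lifr did not pass the test in tumors (adjusted p = 0.076) or CAFs (0.087). Of the 12 genes of the gp130 list, 7 were higher in Pan02 tumors, beside 18.8% of all genes, and 6 lower in B16 tumors, beside 19.6%, with medians of 1.17 and -1.12. Clcf1, another ligand of the family, was lower in B16 tumors (-5.21) and higher in MC38 (2.18), EO771 (1.6) and Pan02 (1.19), and Osmr, the oncostatin M receptor, was lower in B16 (-2.31) and higher in Pan02 (1.21).

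Il33, the alarmin, fell into 3 levels in tumors. It was 222, 209 and 83.2 CPM in LL2, 172, 93.6 and 118 in Pan02, 57.3, 22.6 and 37.7 in MC38, 3.29, 10.0 and 10.4 in B16 and 4.13, 2.46 and 5.58 in EO771. LL2 and Pan02 overlapped, MC38 lay between without touching either side, and B16 and EO771 overlapped at the bottom. Against the other models the log2 fold change was 3.09 ± 0.31 in LL2 (adjusted p = 4.13e-06), 2.56 ± 0.31 in Pan02 (adjusted p = 1.15e-05), -2.41 ± 0.43 in B16 (adjusted p = 0.000281) and -3.66 ± 0.48 in EO771 (adjusted p = 2.81e-05). In CAFs the spread was smaller, with 61.0 and 69.7 RPKM in LL2, 60.8 and 58.3 in Pan02, 34.5 and 54.5 in EO771 and 26.6 and 10.1 in MC38. MC38 CAFs were lower than the mean of the others by a log2 difference of -1.69 ± 0.33 (adjusted p = 0.00327), and by -1.03 without library 6 (adjusted p = 0.00606). EO771 tumors held 0.975 to 2.20 RPKM of Il33 and EO771 CAFs 34.5 and 54.5.

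Il1rl1, the gene of the IL-33 receptor ST2, was at its highest where Il33 was intermediate. It was 353, 238 and 376 CPM in MC38 tumors against 56.3, 102 and 47.1 in LL2 and at most 10.6 in every tumor of the other 3 models (log2 fold change in MC38 5.20, adjusted p = 7.7e-10). In CAFs it was 20.9 and 22.7 RPKM in LL2, 13.4 and 20.2 in MC38, 7.04 and 7.56 in EO771 and 1.83 and 1.30 in Pan02. Among the 12 IL-1 and NF-kB genes, 8 were lower in B16 tumors, beside 19.6% of all genes, and 6 higher in LL2 tumors, beside 8.51%, with medians of -1.30 and 1.14. Il1b, a main inducer of the family, was lower in B16 (log2 -3.89) and Il1r1, its receptor, was higher in LL2 (3.16). In CAFs, Il1b was 1.96 and 2.85 RPKM in EO771 and at most 0.083 elsewhere, beside a leukocyte marker sum of 68.0 and 82.0 RPKM in EO771 CAFs that was at most 19.4 in the others.

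Cxcl12, the chemokine, was 18.9, 53.2 and 74.9 CPM in Pan02 tumors, 19.9, 68.6 and 38.8 in LL2, 33.8, 15 and 33.4 in MC38, 2.11, 4.17 and 13.7 in B16 and 4.53, 5.31 and 8.67 in EO771. The 3 higher models overlapped, as did the lower pair, and the 2 sets were apart. Its log2 fold change was 1.71 ± 0.45 in Pan02 (adjusted p = 0.00474), 1.46 ± 0.45 in LL2 (adjusted p = 0.0193), -1.82 ± 0.57 in B16 (adjusted p = 0.0135) and -2.02 ± 0.59 in EO771 (adjusted p = 0.0107). Each of these 4 calls was lost without 1 tumor, at adjusted p = 0.056 without Pan02 tumor 3, 0.2 without LL2 tumor 2, 0.064 and 0.068 without B16 tumor 1 or 2, and 0.058 without EO771 tumor 1. The B16 value was -2.9 without B16 tumor 3 (adjusted p = 0.00237). The order changed in CAFs, where EO771 held 55.2 and 89.7 RPKM, LL2 64.5 and 54.9, MC38 68.2 and 19.5 and Pan02 21.6 and 10.5. Neighbouring CAF models overlapped throughout, and Pan02 was lower by -1.76 ± 0.46 (adjusted p = 0.0146), or -1.27 without library 4 (adjusted p = 0.13). Of its 2 receptors, Cxcr4 was higher in Pan02 tumors (log2 1.68) and did not pass the test among CAFs (adjusted p = 0.06), and Ackr3 was higher in EO771 tumors (2.43), Pan02 tumors (2.22) and EO771 CAFs (1.85).

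**Figure D3:**
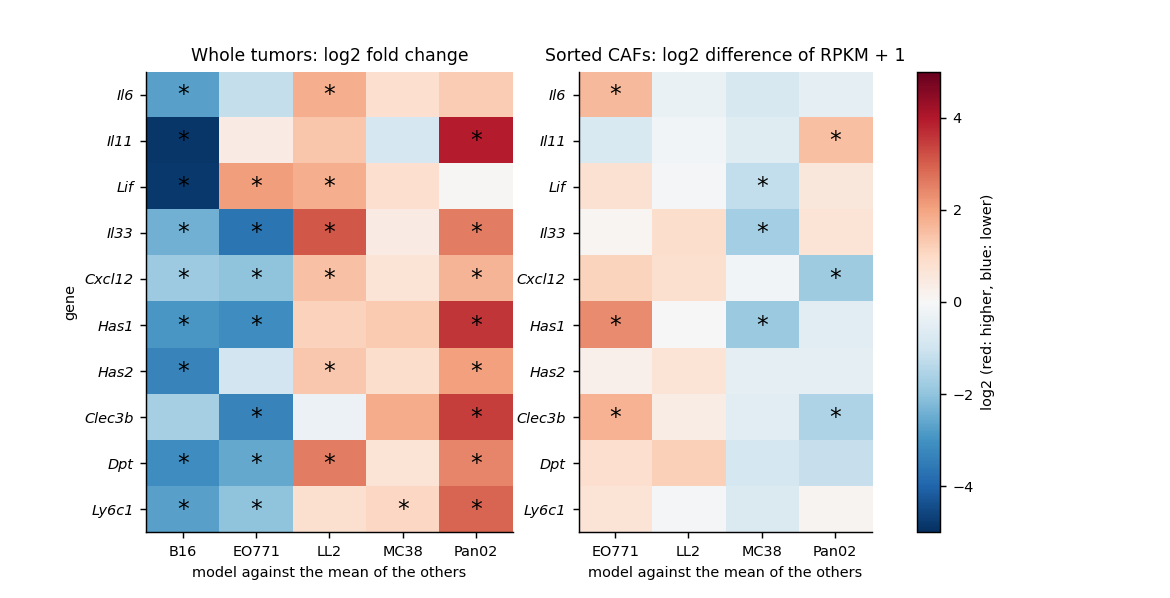
Log2 value of each gene (rows) in each model against the mean of the others (columns), for tumors on the left and CAFs on the right; red is higher, blue lower, and a star marks an adjusted p under 0.05 with a log2 value of at least 1 either way. EO771 has 6 starred blue cells in tumors and 3 starred red cells in CAFs.

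The hyaluronan synthases were highest in Pan02 tumors but differed in CAFs. Has1 was 35.0, 30.1 and 10.3 CPM in Pan02 tumors, 12.3, 0.695 and 8.63 in MC38, 1.16, 14.3 and 4.32 in LL2, 0.159, 0.382 and 1.39 in EO771 and 0.0982, 0.187 and 1.55 in B16. Every neighbouring pair of models overlapped, and MC38 tumor 2 and LL2 tumor 1 lay among the EO771 and B16 values. The log2 fold change was 3.56 ± 0.69 in Pan02 (adjusted p = 0.000578), -3.12 ± 1.11 in EO771 (adjusted p = 0.0291) and -2.92 ± 1.06 in B16 (adjusted p = 0.0276). The EO771 call was lost without B16 tumor 3 or EO771 tumor 1 or 2 (adjusted p of 0.083 to 0.12), and the B16 call without B16 tumor 1 or 2 or EO771 tumor 3 (0.052 to 0.1), and the B16 value was -5.04 without B16 tumor 3. In CAFs, Has1 was 36.2 and 56.2 RPKM in EO771, 12.5 and 12.8 in LL2, 10.6 and 7.72 in Pan02 and 7.41 and 2.17 in MC38, with no overlap between neighbours. The log2 difference of EO771 CAFs was 2.37 ± 0.35 (adjusted p = 0.00134), the largest among the 10 genes in any CAF contrast, and that of MC38 was -1.84 ± 0.35 (adjusted p = 0.00298), or -1.14 without library 6 (adjusted p = 0.0057).

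Has2 was 19.7, 12.4 and 5.07 CPM in Pan02 tumors, 8.22, 9.60 and 7.45 in LL2, 10.7, 1.96 and 6.54 in MC38, 1.27, 2.29 and 3.53 in EO771 and 0, 0.746 and 0.948 in B16, where a count of 0 allows up to 0.295 CPM in tumor 1. B16 lay below all other tumors. Pan02 was higher (log2 2.06 ± 0.47, adjusted p = 0.00191), as was LL2 (1.35 ± 0.49, adjusted p = 0.0392), and B16 was lower (-3.33 ± 0.71, adjusted p = 0.00103). The LL2 call was lost, at adjusted p of 0.05 to 0.13, without any 1 of the 3 LL2 tumors, EO771 tumor 1 or 2, B16 tumor 2, Pan02 tumor 2 or MC38 tumor 3. In CAFs, Has2 was low, at 4.80 and 4.38 RPKM in LL2, 3.24 and 3.72 in EO771, 2.91 and 1.49 in MC38 and 2.78 and 1.39 in Pan02, and no single model passed the test. Has2 shares 182 of its 4237 exonic bases with the antisense gene Has2os, and the library did not keep strand.

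Genes that bind or carry hyaluronan were tested beside the synthases. Cd44, its main receptor, was higher in EO771 CAFs (90.0 and 93.8 RPKM, log2 difference 1.11, adjusted p = 0.00014) and lower in MC38 CAFs (29.8 and 28.0 RPKM, -1.07). Tnfaip6, which crosslinks hyaluronan in inflammation, was 69.1 and 96.0 RPKM in EO771 CAFs and 6.81 and 2.21 in Pan02 CAFs (log2 differences of 2.79 and -2.60). Vcan, a proteoglycan that binds it, was higher in LL2 tumors (3.32) and LL2 CAFs (2.92). Of the 11 hyaluronan genes, 9 were tested in CAFs, of which 2 were higher in EO771, beside 8.05% of all genes, 3 lower in MC38, beside 9.87%, and 2 lower in Pan02, beside 8.41%. Their medians were 0.64, -0.10 and 0.07.

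Clec3b, the gene of the plasminogen-binding protein tetranectin, was at opposite ends of the 2 data sets in EO771 among the models with both tumors and CAFs. EO771 tumors held 1.96, 0.382 and 1.83 CPM, LL2 tumors 4.31, 10.2 and 9.08, MC38 tumors 30.4, 9.78 and 37.4, Pan02 tumors 4.93, 71.1 and 111, and B16 tumors 0.0491, 0.342 and 9.70. The 3 EO771 tumors lay below every LL2, MC38 and Pan02 tumor, and B16 tumor 3 lay far above the other 2 of its model, which held 0.5 and 5.5 reads. For Clec3b the log2 fold change was -3.34 ± 1.14 in EO771 (adjusted p = 0.0241) and 3.44 ± 0.72 in Pan02 (adjusted p = 0.00103), and the EO771 call was lost without any 1 of the 3 EO771 tumors or B16 tumor 3, at adjusted p of 0.055 to 0.094. In CAFs, EO771 held 138 and 149 RPKM, LL2 63.7 and 77.3, MC38 99.3 and 18.4 and Pan02 35.1 and 17.9. EO771 libraries lay above all others, with a log2 difference of 1.74 ± 0.55 (adjusted p = 0.0321), and Pan02 was lower by -1.56 ± 0.55 (adjusted p = 0.0457), but neither call was firm. That of EO771 was lost without any 1 of the EO771 or LL2 libraries or Pan02 library 4 (adjusted p of 0.061 to 0.15), and that of Pan02 without any 1 of the EO771, LL2 or Pan02 libraries (0.072 to 0.28). Per length, the level was 0.387 to 1.97 RPKM in EO771 tumors and 138 and 149 in EO771 CAFs. Pan02 tumors ran from 4.66 to 107 RPKM, a range that took in both Pan02 CAF libraries, at 35.1 and 17.9.

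Dpt, which encodes the matrix protein dermatopontin, was 142, 115 and 209 CPM in LL2 tumors, 22.3, 204 and 210 in Pan02, 63.7, 21.3 and 78.1 in MC38, 7.49, 6.96 and 12.9 in EO771 and 0.638, 1.80 and 16.2 in B16. EO771 and B16 overlapped and lay below all others, and Pan02 tumor 1, the tumor with the most Il11, had far less Dpt than the other 2. The log2 fold change was 2.57 ± 0.59 in LL2 (adjusted p = 0.00317), 2.45 ± 0.59 in Pan02 (adjusted p = 0.00269), -2.56 ± 0.82 in EO771 (adjusted p = 0.0182) and -3.12 ± 0.85 in B16 (adjusted p = 0.00571), the latter -5.43 without B16 tumor 3, and the EO771 call was lost without EO771 tumor 1 or 2 (adjusted p = 0.075 and 0.074). In CAFs, Dpt was among the most abundant members at 164 and 176 RPKM in LL2, 128 and 153 in EO771, 130 and 24.3 in MC38 and 73.9 and 33.0 in Pan02, and did not pass the test among models.

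Ly6c1, a surface protein of the Ly6 family, was 173, 195 and 123 CPM in Pan02 tumors, 52.1, 52.5 and 72.3 in MC38, 26.1, 63.3 and 62.8 in LL2, 10.6, 9.30 and 12.3 in EO771 and 2.16, 7.21 and 11.6 in B16. Pan02 lay above all other tumors. Its log2 fold change was 2.89 ± 0.28 in Pan02 (adjusted p = 1.44e-06) and 1.05 ± 0.30 in MC38 (adjusted p = 0.0103), the 1 member called in MC38 tumors, and -2.01 ± 0.38 in EO771 and -2.72 ± 0.40 in B16. The MC38 value was 0.96, 0.94 and 0.85 without B16 tumor 1, LL2 tumor 1 or MC38 tumor 3. In CAFs, it was 116 and 132 RPKM in EO771, 129 and 64.6 in Pan02, 99.2 and 33.9 in MC38 and 77.6 and 87.2 in LL2. Neighbouring models overlapped, although both EO771 libraries lay above every MC38 and LL2 library. Of its windows of 50 bases, 32.8% occur in transcripts of other genes, mainly Ly6c2, so its level is uncertain. Ly6c2 itself was highest in MC38 tumors (25.2, 55.5 and 34.5 CPM) and under 1 RPKM in all CAFs. Endothelial cells are also known to carry Ly6c1. The endothelial marker sum was 73.8 and 73.9 RPKM in EO771 CAFs, 45.5 and 58.7 in LL2, 39.3 and 28.1 in MC38 and 12.1 and 6.03 in Pan02. What part endothelial cells had in the Ly6c1 levels was not tested.

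The other genes of inflammatory CAFs and of adventitial fibroblasts were counted from lists. Of 16 further inflammatory CAF genes, 11 were lower and 1 higher in B16 tumors, beside 19.6% and 13.1% of all genes. In EO771 tumors 8 were lower and 1 higher, beside 13.7% and 9.71%. In LL2 tumors 9 were higher and 1 lower, beside 8.51% and 8.29%. In Pan02 tumors 9 were higher and 2 lower, beside 18.8% and 7.93%. In MC38 tumors 4 were higher and 0 lower, beside 11.2% and 8.24%. In CAFs, 15 of them were tested. In EO771 CAFs 6 were higher and 1 lower (median 0.87), beside 8.05% and 7.06% of all genes. In Pan02 CAFs 5 were higher and 6 lower, beside 9.73% and 8.41%. In LL2 CAFs 5 were higher and 2 lower, beside 3.89% and 5.13%. In MC38 CAFs 1 was higher and 5 lower, beside 10.9% and 9.87%. Saa3, an acute phase protein, was 225 and 437 RPKM in EO771 CAFs and 9.47 and 3.19 in Pan02 CAFs. Cxcl1, a neutrophil chemokine, was higher in LL2 tumors (log2 6.15), and in CAFs it was higher in both EO771 (1.72) and LL2 (1.59). Cxcl2 was highest in Pan02 CAFs (151 and 70.3 RPKM). Ccl2 was 319 and 277 RPKM in LL2 CAFs, 234 and 267 in MC38, 124 and 159 in EO771 and 18.9 and 8.06 in Pan02. Of 11 adventitial genes, 10 were lower in B16 tumors (19.6% of all genes). In Pan02 tumors 8 were higher and 1 lower (18.8% and 7.93%), and in Pan02 CAFs 4 were lower and 1 higher (8.41% and 9.73%). In other tumors, 5 were higher in MC38 (11.2%), 2 higher in LL2 (8.51%) and 4 lower in EO771 (13.7%). In other CAFs, 3 were higher in EO771 (8.05%) and 2 in LL2 (3.89%), while 1 was higher and 2 lower in MC38 (10.9% and 9.87%). Of 10 contractile genes, which mark the other main CAF state, 8 were higher in Pan02 tumors (18.8% of all genes) and 3 in EO771 tumors (9.71%). In B16 tumors 6 were lower (19.6%) and in MC38 tumors 1 was higher (11.2%). In LL2 tumors 2 were higher and 3 lower (8.51% and 8.29%). Among CAFs, 3 were higher in EO771 (8.05%), 1 higher in MC38 (10.9%), 1 lower in LL2 (5.13%) and 2 lower in Pan02 (8.41%). All 9 fibroblast markers were lower in B16 tumors (19.6%) and higher in Pan02 tumors (18.8%). Beside these counts, 6 of the 6 leukocyte markers tested and 4 of the 7 endothelial markers tested were higher in EO771 CAFs, and their part in the results was not tested.

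**Figure D4:**
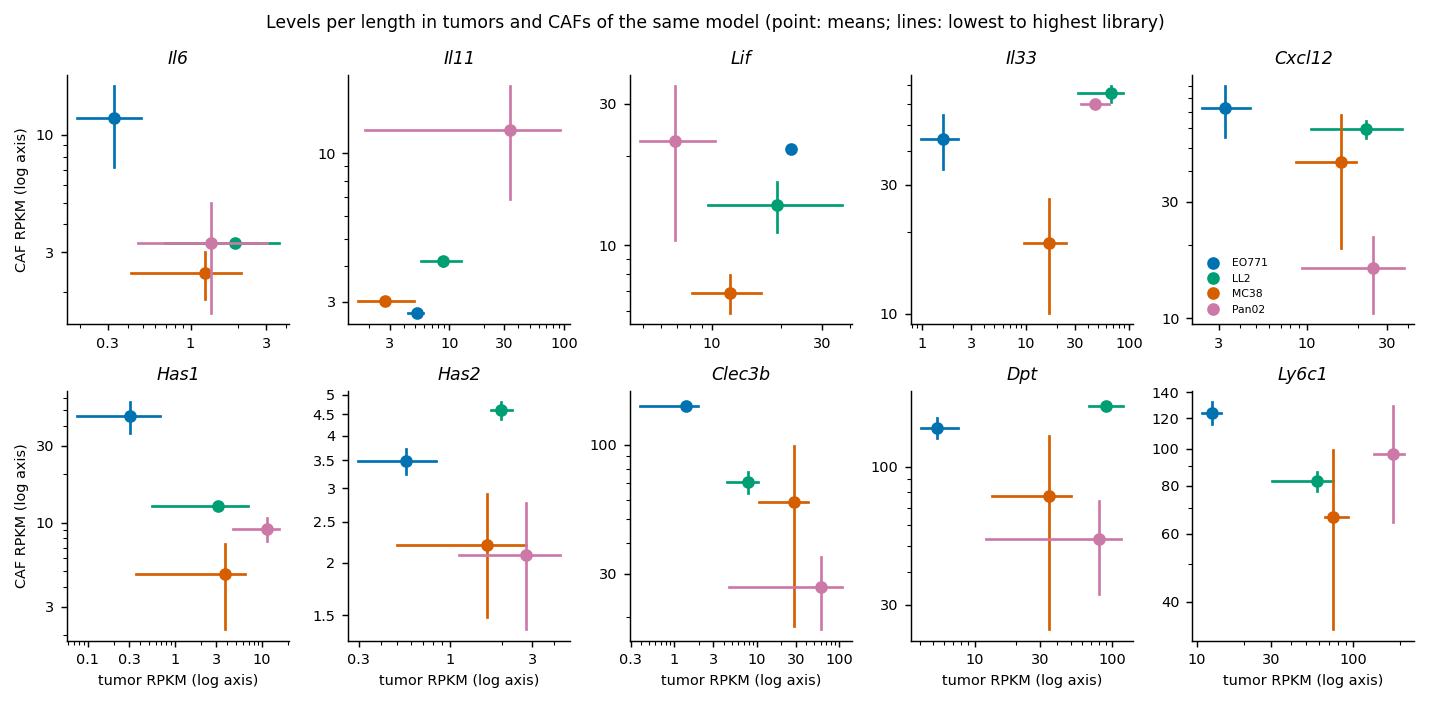
Tumor RPKM (x axis) against CAF RPKM (y axis) of the 4 models with both, on log axes; the point marks the means and the lines run from the lowest to the highest library. EO771 has the lowest tumor mean of the 4 for 8 genes, all but Il11 and Lif, and the highest CAF mean for 5, Il6, Cxcl12, Has1, Clec3b and Ly6c1, with no test between the axes since the tables were normalized separately.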

How the data were processed

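RNA had been selected for poly(A) tails and made into unstranded libraries. Per the labels and the study's methods, the authors aligned reads to mm10 with STAR 2.5.0c and counted them over exons of RefSeq transcripts with HOMER. For tumors, the authors deposited expected counts in steps of 0.5 reads; for CAFs, the authors deposited RPKM, reads scaled for transcript length and depth. Each holds 40458 transcripts, of which 2 that name no gene were dropped. The 5 columns of CT26 were not used. Rounded counts of genes that filterByExpr kept were analysed in edgeR 4.0.16 with TMM factors. For CAFs, limma 3.58.1 was run on log2(RPKM + 1) for genes that reached 1 RPKM in 2 or more libraries, and p-values were adjusted over all genes by Benjamini-Hochberg. All CAF values tested for steps (100% within 0.1 of a whole number of steps) gave whole steps of 0.5 reads, which were recovered for an added edgeR fit. A call needed an adjusted p under 0.05 and, for single models, a log2 value of at least 1. CAF libraries carry numbers 1 to 8 in the table, which do not name replicates. The rule for named genes gave all 10 members, fixed partners (Il6ra, Il6st, Il11ra1, Lifr, Il1rl1, Cxcr4, Ackr3, Cd44) and, from each list, the 3 genes with the widest range among those that passed the overall test; some of these are not printed. Saa3, Il1b in CAFs and Ly6c2 levels follow that rule or were named beside a result. Tumor RPKM were computed from counts, transcript length and the sum over genes. Members, lists and partners were chosen with earlier results of these data known. Alternatives were DESeq2 1.42.0, other scalings, filters, pseudocounts and transcripts, the replicate number as a block, and leaving out each library. Counting limits cover counting error only. Work used R 4.3.3, Python 3.11.15, pandas 2.3.3 and matplotlib 3.10.9.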

Additional observations from a re-analysis of the deposited data

Results flagged for a closer look

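Clec3b in EO771 moved in opposite directions in tumors and CAFs of the same models. On the log2(CPM + 1) scale the EO771 tumors were below the LL2, MC38 and Pan02 tumors by a mean difference of -3.09, and each of the 3, at most 1.96 CPM, was below the lowest of the other 9, at 4.31 CPM. On the log2(RPKM + 1) scale both EO771 CAF libraries were above the other 6 by a mean difference of 1.74, the lower of them at 138 RPKM and the highest of the others at 99.3. The difference between the 2 contrasts was not tested, since the tables were normalized separately.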

How the results depend on the processing

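All 10 genes differed among the tumor models under every alternative run. The count of genes higher in MC38 tumors, 1, became 2 with library totals only, with the longest transcript and with the replicate block, and ran from 0 to 2 when single tumors were left out. Leaving out single tumors gave 1 to 2 genes higher in EO771, 2 to 7 higher in LL2, 8 to 9 higher in Pan02, 7 to 9 lower in B16 and 2 to 6 lower in EO771. Of the single genes, Il6 in Pan02 tumors ran from -0.13 to 1.64, with -0.13 without tumor 2, and Has1 in LL2 tumors from -0.11, without tumor 2, to 1.695. With the replicate block, 5 genes were higher in LL2 tumors, beside 1302 of all 15722 genes tested. Among the models, 14222 of those 15722 differed with the block. Correlations of the deviations from the model mean were computed between tumors of different models, and they lay on both sides of 0. With the same number, the 30 correlations ran from -0.18 to 0.27 (median 0.03). With different numbers, the 60 correlations ran from -0.32 to 0.35 (median 0.01). These values do not tell what the numbers stand for, and whether tumors of the same number shared a round was not tested. No paired analysis was possible for CAFs because their columns carry no replicate number.

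In CAFs, the count of genes that differed was 3 without the filter on low values, beside 11385 of all 22987 genes tested. It was 6 with a pseudocount of 0.1 (beside 10797 of 13598), a median of ratios (11130 of 13598) or edgeR on recovered reads (11999 of 15478). Without the filter, 1 gene was lower in Pan02, beside 1075 of 22987. With the longest transcript 1 was higher in LL2, beside 517 of 13548. Leaving out single libraries gave log2 differences in EO771 of 1.08 to 2.18 for Il6, 2.06 to 2.68 for Has1 and 1.34 to 2.13 for Clec3b. Dpt ran from 0.80 to 1.59 in LL2 and Has1 from -2.54 to -1.14 in MC38. In Pan02, Il11 ran from 0.89 to 2.10 and Clec3b from -2.02 to -1.09. Without MC38 library 6 and Pan02 library 4, the log2 differences of Il11 and Lif in Pan02 were 2.09 and 1.32. Library totals moved the median of all genes in MC38 tumors to 0.14. The cause of these changes was not tested.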

Other observations

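Within LL2, MC38 and Pan02, the tumor with the most Il6 was also the tumor with the most Il1b, Osm, Ptgs2, Cxcl1 and Nfkbiz, a pattern noticed after the values were seen. LL2 tumor 2 held 75.1 CPM of Il1b against 45.4 in the next tumor, and 533 CPM of Cxcl1 against 77.8. Pan02 tumor 2 held 85.6 CPM of Il1b against 16.1, and 170 CPM of Ptgs2, the gene of the prostaglandin synthase COX-2, against 26.2. MC38 tumor 1 held 33.2 CPM of Il1b against 23.8. In EO771 the most Il6 was in tumor 1 and the most Il1b in tumor 3, and in B16 in tumors 2 and 3. Dpt was highest in tumor 3 of every model, and Clec3b in tumor 3 of B16, MC38 and Pan02.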
